A study of Rattus norvegicus with 22 samples.

Results

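Round spermatids of rats given cyclophosphamide were compared with those of rats given saline, on 12 of the 22 arrays of the study, 6 for each treatment, chosen by the labelled cell type and treatment. Males were dosed orally by gavage, with 6 mg/kg of the drug or with saline, on 6 days of each of 4 weeks, and the 2 groups differed in no other way that the labels give. The strain and the age of the animals are not given in the sources used here. Germ cells were separated by sedimentation at unit gravity, a method that sorts cells by size and leaves some other cells in each fraction, and their RNA was measured on 1-colour Agilent whole-genome rat arrays. Each group holds 1 array per rat number, so the spread within a group is that between rats, as far as the labels tell. The 12 arrays lay on 2 slides with 3 arrays of each treatment on each slide. Slide 1 held cyclophosphamide rats 14, 16 and 26 and saline rats 15, 17 and 25, and slide 2 held cyclophosphamide rats 15, 25 and 27 and saline rats 16, 28 and 29. Rats 15, 16 and 25 occur in both groups and are different animals with the same number.

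Cyclophosphamide is an alkylating agent that is activated in the liver and forms crosslinks between the strands of DNA. Round spermatids are the haploid cells that follow meiosis. They still transcribe genes, and they build the acrosome and the flagellum and then replace histones by transition proteins and protamines, after which transcription stops. Chronic low-dose treatment of male rats is a known model of damage passed through the male germ line.

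Levels are given as log2 of the processed signal relative to the 75th percentile of the same array, so that a level above 0 belongs to the brighter probes of the array. A difference is the cyclophosphamide level minus the saline level, on the log2 scale, with slide as a block. Markers of the labelled cell type were bright in both groups. The 20 tested round spermatid markers had a mean level of 4.05 to 4.43 (median 4.35) over the cyclophosphamide arrays and 4.04 to 4.48 (median 4.23) over the saline arrays. Of these markers, 18 were higher in round spermatids than in the study's pachytene spermatocytes and none was lower. Of all 19249 genes tested, 8128 were higher and 7189 lower. The genes tested were kept for signal in round spermatids, so genes detected in pachytene spermatocytes alone are left out. The 75th percentile of intensity was 1068 to 2417 and 65.3 to 76.4% of probes were well above background, in overlapping ranges for the groups. Over the genes tested, arrays of the same treatment correlated at a median of 0.988, as did arrays of different treatments.

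No gene passed the test for a difference between cyclophosphamide and saline. Of 19249 genes tested (10903 with a gene symbol), limma called 0 at an adjusted p of 0.05, or 0%, and the smallest adjusted p was 0.485. At an unadjusted p under 0.05 there were 600 higher genes (3.12%) and 332 lower genes (1.72%), 932 in all. The 6 cyclophosphamide rats lay wholly above the 6 saline rats for 30 genes (0.156%) and wholly below for 8 genes (0.0416%). The 95% interval of the difference lay within 2-fold in both directions for 96.6% of genes and within 1.5-fold for 79.4%. The median distance from the difference to either bound of its interval was 0.29, or 1.22-fold. Precision depended on brightness, since the interval lay within 1.5-fold for 94.2% of the 6416 brightest genes and for 62.2% of the 6417 dimmest.

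**Figure D1:**
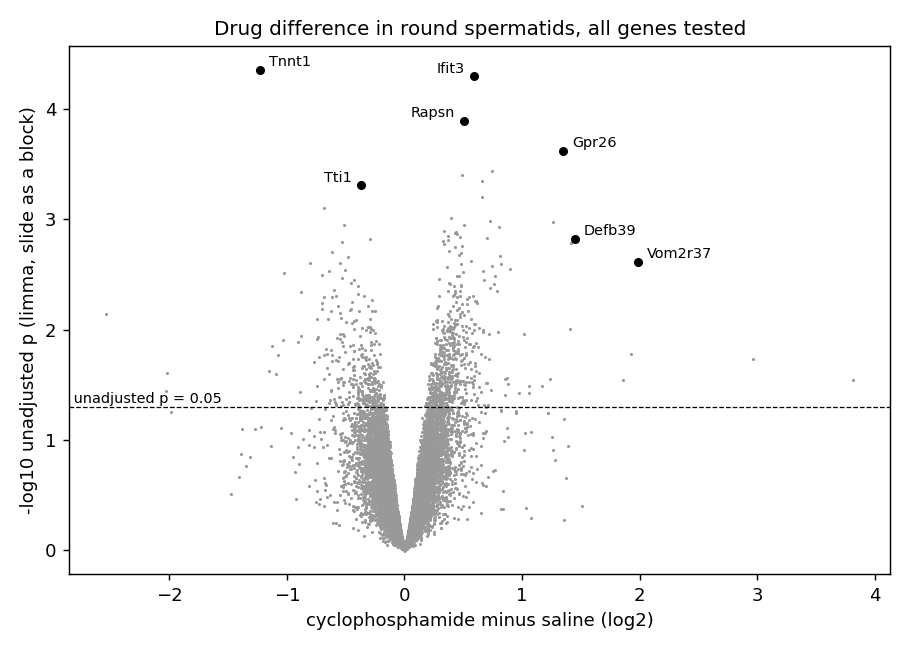
Each point is 1 of 19249 genes, with the difference between cyclophosphamide and saline on the x axis (log2) and the negative log10 of the unadjusted p on the y axis. Named points are genes with small p, none of which passed after adjustment, and the dashed line marks an unadjusted p of 0.05.

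The gene with the smallest p was Tnnt1, the troponin T of slow skeletal muscle. Its level was -3.23 to -2.87 (median -3.03) in the cyclophosphamide rats and -2.74 to -0.95 (median -1.87) in the saline rats. All 6 treated rats lay below all 6 saline rats, and the treated rats lay close together while the saline rats spread over a wide range. The difference was -1.23 (SE 0.20, limma adjusted p = 0.485). It was -1.75 on slide 1 and -0.71 on slide 2. Another probe of the same gene gave -1.79 (SE 0.28). Tnni3, the troponin I of heart muscle, pointed the other way, at 1.47 to 1.91 (median 1.75) under the drug and 1.28 to 1.41 (median 1.34) under saline. Its groups did not overlap, and the difference was 0.37 (SE 0.09, limma adjusted p = 0.928).

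Among the higher genes, Ifit3, an interferon-induced antiviral protein, came first. Its level was -4.72 to -4.32 (median -4.60) in the cyclophosphamide rats and -5.32 to -4.92 (median -5.10) in the saline rats. The groups did not overlap, on a dim probe that was above background on all 12 arrays. The difference was 0.59 (SE 0.10, limma adjusted p = 0.485), with 0.52 on slide 1 and 0.66 on slide 2. Rapsn, which clusters acetylcholine receptors at the neuromuscular junction, had -4.77 to -4.37 (median -4.53) under the drug and -5.44 to -4.84 (median -5.04) under saline. It too had no overlap, with a difference of 0.51 (SE 0.09, limma adjusted p = 0.817). Gal3st3, a sulfotransferase that acts on galactose, differed by 0.66 (SE 0.14) and Ap3m2, a subunit of the AP-3 vesicle adaptor, by 0.44 (SE 0.11), both without overlap and at an adjusted p of 0.928. For Ap3m2 the drug group spanned 0.41 to 0.92 and the saline group 0.03 to 0.34. Gzmm, a granzyme of cytotoxic lymphocytes, was dim and differed by 0.38 (SE 0.10) without overlap.

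Among the 12 higher genes with a symbol and the smallest p, the 3 largest differences were measured near background. Gpr26, an orphan receptor, was well above background on 5 of 6 cyclophosphamide arrays and on none of 6 saline arrays, so its saline level is a bound and it was at least 1.28-fold higher under the drug. A bound of this kind sets the drug group's mean against the lowest signal that was well above background on each saline array. Defb39, a beta-defensin, was above background on 6 cyclophosphamide arrays and on 1 saline array, with a fitted difference of 1.45 (SE 0.36). Vom2r37, a vomeronasal receptor, differed by 1.99 (SE 0.52) with overlapping groups, from -5.95 to -3.70 under the drug and from -8.15 to -4.89 under saline, where 4 of 6 arrays were above background. Gopc, a Golgi protein needed for acrosome formation, was -1.64 to -1.42 (median -1.48) under the drug and -1.93 to -1.64 (median -1.86) under saline, and differed by 0.33 (SE 0.08). Pdpr, a regulator of pyruvate dehydrogenase phosphatase, was above background on 5 cyclophosphamide arrays and on 1 saline array, with a fitted difference of 0.47 (SE 0.12), and Slc38a3, a glutamine transporter, differed by 0.57 (SE 0.15), also with overlap. A gene was tested if it was well above background on at least 5 of 6 arrays of either group. Gpr26, Defb39, Pdpr and Vom2r37 met this through the cyclophosphamide arrays alone, so their split in detection is no support for a difference. Where saline arrays were not above background, as for Defb39 and Pdpr, the fitted difference rests on signals near background and its size is uncertain. None of these passed (limma adjusted p = 0.928 for each).

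Among the lower genes, Tti1, which stabilises ATM, mTOR and related kinases, had 0.38 to 0.59 (median 0.42) in the cyclophosphamide rats and 0.68 to 1.08 (median 0.77) in the saline rats. The groups did not overlap, and the difference was -0.37 (SE 0.08, limma adjusted p = 0.928), with -0.43 on slide 1 and -0.31 on slide 2. Fem1a, a substrate receptor of a ubiquitin ligase, was 2.25 to 2.65 under the drug and 2.61 to 2.97 under saline, and differed by -0.29 (SE 0.07). The groups overlapped slightly. Drg1, a GTPase, differed by -0.48 (SE 0.13), Mettl25, a methyltransferase-like protein, by -0.53 (SE 0.13) and Sestd1 by -0.43 (SE 0.12), the last without overlap. Bcorl1, a transcriptional corepressor, differed by -0.55 (SE 0.14). Tcp11l1, above background on 3 treated and 5 saline arrays, was at -0.70 (SE 0.19), Cyp2c23, an epoxygenase, at -0.53 (SE 0.15) and Adora2b, an adenosine receptor, at -0.40 (SE 0.12). Terc, the RNA of telomerase, was -5.59 to -5.04 under the drug and -5.22 to -4.13 under saline, a difference of -0.60 (SE 0.17). Terf2ip, a telomere protein above background on 4 treated and 5 saline arrays, differed by -0.58 (SE 0.17). Like Tcp11l1, it entered the test through the saline arrays alone. For none of these lower genes did limma's adjusted p fall under 0.928.

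**Figure D2:**
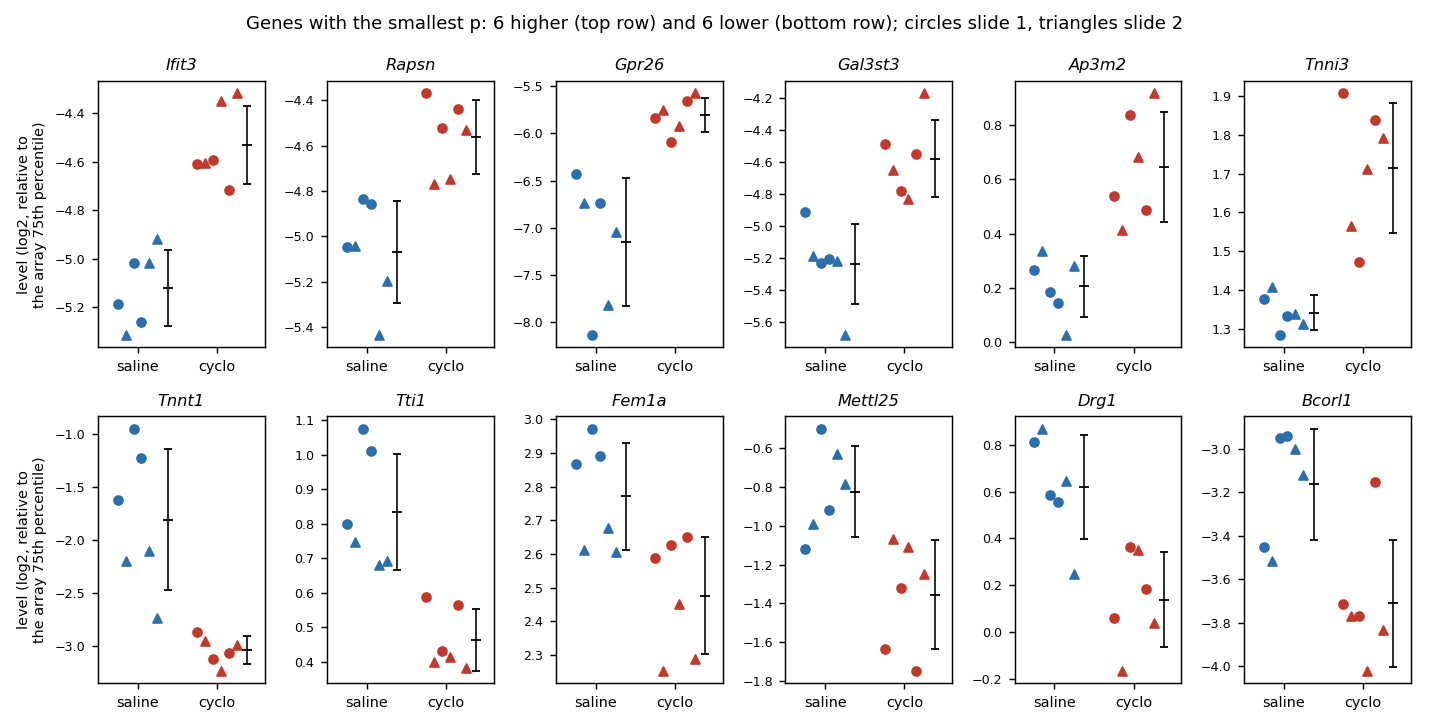
Level on each array (log2, relative to the array's 75th percentile) of the 6 higher and the 6 lower genes with the smallest p among genes with a symbol. Saline is in blue and cyclophosphamide in red, with circles for slide 1 and triangles for slide 2. Black marks show the mean and SD of 6 arrays. Tnnt1 spans -3.23 to -2.87 in the treated rats and -2.74 to -0.95 in the saline rats.

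The slides share no array, so each gives its own estimate of the drug difference. Over the 19249 genes these estimates had a Pearson correlation of -0.05 and a Spearman correlation of -0.08, as a description across genes. The sign was the same on both slides for 46.5% of genes. Of the 100 genes with the smallest p on slide 1, 41 had the same sign on slide 2 and 5 of these also had an unadjusted p under 0.05 there. Of the 100 with the smallest p on slide 2, 48 had the same sign on slide 1. The slide term of the same limma fit passed an adjusted p of 0.05 for 873 genes.

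**Figure D3:**
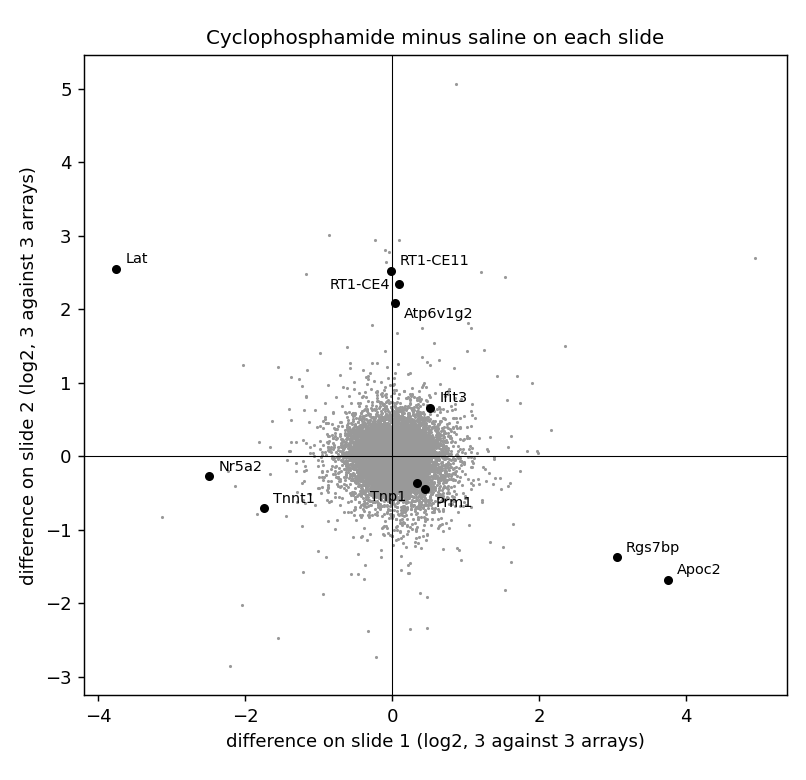
Each point is a gene, with the cyclophosphamide minus saline difference on slide 1 (x axis, log2) against that on slide 2 (y axis, log2), each from 3 against 3 arrays. The cloud has no slope (Pearson correlation -0.05), and Lat, Apoc2 and Rgs7bp lie far out with opposite signs on the slides.

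The protamines and transition proteins that pack the spermatid nucleus had differences of opposite sign on the slides. Prm1, a protamine, was at 7.15 to 8.12 (median 7.63) under the drug and 7.10 to 8.03 (median 7.60) under saline. The groups overlapped almost fully and the difference was 0.00 (SE 0.20), yet it was 0.44 on slide 1 and -0.45 on slide 2. Prm2 had a difference of -0.05 (SE 0.15), with 0.23 and -0.33 on the slides. Tnp1, a transition protein, was 7.00 to 7.83 under the drug and 7.06 to 7.74 under saline, with 0.34 on slide 1 and -0.36 on slide 2. Tnp2 had 0.40 and -0.30. The 12 late spermatid markers had a median difference of 0.01, of 0.38 on slide 1 and -0.33 on slide 2. Their mean level was lowest on cyclophosphamide rat 15 (5.95) and saline rat 15 (5.92) and highest on cyclophosphamide rat 26 (6.66) and saline rat 29 (6.56). Hook1, a protein of the spermatid manchette, differed by -0.09 (SE 0.10) on the probe used and 0.03 (SE 0.14) on another. For each of the 12, the 95% interval of the difference lay within 1.5-fold. The 19 chromatin condensation genes (protamines, transition proteins and testis histones) had a median of 0.00, with 7 above 0 and 12 below, and 0.23 and -0.21 on the slides. The smallest p of this list belonged to 2 chromatin regulators whose sign was shared by the slides. Rnf168, a ubiquitin ligase for histones, differed by -0.36 (SE 0.20), with -0.47 on slide 1 and -0.25 on slide 2. Another probe of Rnf168 gave -0.19 (SE 0.15). Jmjd1c, a histone demethylase family member, differed by -0.09 (SE 0.08) on the probe used and 0.04 (SE 0.17) on another.

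No gene of the acrosome and tail lists passed the test. Of 33 acrosome and egg-binding genes, 21 were above 0 and 12 below, with a median of 0.04, and 1, Gopc, was higher at an unadjusted p under 0.05, beside 3.12% of all genes. Acrv1, an acrosomal matrix protein, was 3.0 to 3.34 (median 3.09) under the drug and 2.72 to 3.34 (median 3.04) under saline, a difference of 0.10 (SE 0.11). Actl7a, an actin-like protein of the spermatid head, differed by 0.17 (SE 0.11). Of 20 round spermatid markers 13 were above 0, none reached an unadjusted p under 0.05, and all 20 intervals lay within 1.5-fold. Catsper3, a subunit of the sperm calcium channel, differed by 0.15 (SE 0.12). Of 41 genes of the fibrous sheath, outer dense fibres and flagellum, 23 were above 0 and 18 below. Odf1, an outer dense fibre protein, differed by 0.11 (SE 0.16), and Spag6, of the central apparatus, by -0.12 (SE 0.08). Cfap43, an axonemal protein, had a difference of 0.95 (SE 0.45) that was 1.83 on slide 1 and 0.07 on slide 2, and its level on saline rat 17 (-4.56) lay far below the other saline rats (-2.22 to -1.47). Of 31 spermatid transcription and RNA regulators, 12 were above 0 and 19 below. Rfx2, a transcription factor of spermatids, differed by -0.18 (SE 0.11). Of 36 glycolytic genes, including the sperm-specific paralogs, 21 were above 0. Gapdhs, the sperm form of glyceraldehyde-3-phosphate dehydrogenase, differed by 0.09 (SE 0.11), Pfkfb4 by 0.34 (SE 0.12) and Slc2a1, a glucose transporter, by -0.52 (SE 0.22).

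Genes of DNA repair and damage signalling, the lists nearest to the action of an alkylating drug, held no call in 8 lists. The largest share of low unadjusted p was in the 16 damage signalling checkpoint genes, of which 12 were below 0 and 3 were lower at an unadjusted p under 0.05, beside 1.72% of all genes. Rad1, of the 9-1-1 clamp that signals damage, was -3.34 to -2.58 (median -3.07) under the drug and -2.94 to -2.24 (median -2.35) under saline. Its groups overlapped, and the difference was -0.52 (SE 0.18). Hus1, of the same clamp, had -0.43 (SE 0.17) on the probe used and 0.06 (SE 0.16) on another probe. The list's median was -0.08, with -0.15 on slide 1 and 0.01 on slide 2, and it was -0.02 without cyclophosphamide rat 16. Of 19 base excision genes 12 were below 0. Ung, the uracil glycosylase, differed by -0.61 (SE 0.23) and Parp1, the sensor of strand breaks, by -0.33 (SE 0.14). Of 15 genes of alkylation reversal and translesion synthesis 10 were below 0. Mgmt, which removes alkyl groups from guanine, was -3.25 to -2.54 (median -2.75) under the drug and -2.98 to -1.78 (median -2.55) under saline, and differed by -0.37 (SE 0.18). Alkbh2, an alkylation repair dioxygenase, differed by -0.36 (SE 0.23).

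Of 16 genes of interstrand crosslink repair, 9 were above 0 and 7 below. Mus81, a nuclease of that pathway, was 0.44 to 0.84 (median 0.70) under the drug and 0.25 to 0.58 (median 0.42) under saline, a difference of 0.26 (SE 0.10). Palb2, which links BRCA1 and BRCA2, differed by -0.31 (SE 0.09). Of 16 nucleotide excision genes 11 were below 0, with Ercc8 at 0.28 (SE 0.13) and Ercc3 at -0.13 (SE 0.08). Ercc8, above background on 5 treated and 4 saline arrays, entered the test through the treated arrays alone. Of 17 mismatch repair genes 9 were above 0, with Rfc3, a clamp loader subunit, at -0.17 (SE 0.08) and Pold1, a replicative polymerase, at -0.26 (SE 0.13), and all 17 intervals lay within 1.5-fold. Of 9 end joining genes 5 were below 0, with Xrcc4 at -0.25 (SE 0.16) and Xrcc5 at -0.21 (SE 0.16). Of 37 meiotic recombination genes 22 were below 0, and Rpa2, of the single-strand binding protein, was at -0.33 (SE 0.12). No gene named in this group passed limma's adjusted p of 0.05.

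Stress and metabolism lists had the same outcome. Of 35 apoptosis regulators 22 were below 0. Casp1, the inflammasome caspase, was -2.89 to -1.47 (median -2.11) under the drug and -2.88 to -2.19 (median -2.70) under saline, a difference of 0.53 (SE 0.18). Faslg, a death ligand, was at -0.33 (SE 0.15). It was above background on 4 treated and 5 saline arrays, and entered the test through the saline arrays alone. Of 39 antioxidant enzymes 27 were below 0. Srxn1, sulfiredoxin, was -0.98 to -0.16 (median -0.68) against -1.51 to -0.78 (median -0.99) under saline, a difference of 0.46 (SE 0.16), while Sod2, the mitochondrial superoxide dismutase, was at -0.35 (SE 0.16). Of 34 glutathione transferases and aldehyde dehydrogenases, families that detoxify products of cyclophosphamide, 21 were below 0, with Aldh4a1 at -0.32 (SE 0.13) and Aldh1a2 at -0.14 (SE 0.09). Of 34 heat shock proteins 21 were below 0, with Hspa14 at -0.24 (SE 0.17). Cdc37, an HSP90 co-chaperone, was at -0.16 (SE 0.08) on the probe used and 0.04 (SE 0.08) on another. Of 38 DnaJ co-chaperones 22 were below 0, with Dnajc10 at 0.32 (SE 0.18) and Dnajc5g at 0.18 (SE 0.10). Of 31 genes of the unfolded protein response 16 were below 0, with Sel1l, of ER degradation, at 0.26 (SE 0.13) and Derl3 at -0.19 (SE 0.10). Other probes gave 0.36 (SE 0.11) for Sel1l and -0.06 (SE 0.10) for Derl3. Of the 44 lists, the cytosolic chaperonin list of 14 genes varied least between rats, with a median residual SD of 0.11 beside 0.24 over all genes. Of these genes, 10 were below 0 and all 14 intervals lay within 1.5-fold. Cct6a was at -0.16 (SE 0.08) on the probe used and -0.05 (SE 0.10) on another, and Pfdn2, a prefoldin subunit, at -0.18 (SE 0.11).

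Several large housekeeping lists lay to one side by small amounts. Of 75 cytosolic ribosomal proteins 71 were below 0, with a median of -0.08 beside -0.01 over all genes, of which 47.4% were above 0. The median was -0.03 without cyclophosphamide rat 25 and -0.14 without saline rat 15. The same list had a median of 0.09 on slide 1 and -0.26 on slide 2, so its sign was not shared by the slides. Its mean level was 4.15 to 4.70 (median 4.42) under the drug and 4.34 to 4.67 (median 4.53) under saline, with rat 25 lowest among the treated rats. Rpsa was at -0.40 (SE 0.17) on the probe used and -0.10 (SE 0.17) on another, and Rpl13a was at -0.25 (SE 0.10). Of 65 mitochondrial ribosomal proteins 54 were below 0, with a median of -0.08 that was -0.09 on slide 1 and -0.08 on slide 2, and its mean level was 0.56 to 0.75 under the drug and 0.64 to 0.79 under saline. Mrpl14 was -1.16 to -0.84 (median -1.01) under the drug and -0.87 to -0.39 (median -0.73) under saline, with a difference of -0.34 (SE 0.10), and Mrps35 was at -0.36 (SE 0.13). Of 46 proteasome genes 38 were below 0 (median -0.08, with Psma7 at -0.33, SE 0.17, and Psmg2 at 0.18, SE 0.10). Their median was -0.10 on slide 1 and -0.08 on slide 2. Of 63 splicing genes 48 were below 0 (median -0.10, with -0.13 on slide 1 and -0.003 on slide 2). Prpf38b had -0.89 (SE 0.38) on the probe used and -0.07 (SE 0.21) on another, and Hnrnpf had -0.25 (SE 0.13). Of 74 oxidative phosphorylation genes 59 were below 0 (median -0.05), with Sdhc at -0.25 (SE 0.13) and Cox4i1 at -0.18 (SE 0.12). Their median was 0.004 on slide 1 and -0.13 on slide 2, so its sign was not shared by the slides. Of 54 translation factors 37 were below 0 (median -0.04, with -0.04 on slide 1 and -0.08 on slide 2). Eif4ebp1, an inhibitor of cap-dependent translation, was at -0.35 (SE 0.15) and Eif4a3 at -0.15 (SE 0.08). These are counts of signs, with no member called and genes that are not independent of each other. At an unadjusted p under 0.05, 4 of the 75 cytosolic and 3 of the 65 mitochondrial ribosomal proteins were lower, beside 1.72% of all genes. In the other lists the counts were 1 of 63 splicing genes, 1 of 54 translation factors, 0 of 46 proteasome genes and 0 of 74 oxidative phosphorylation genes.

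The remaining lists had medians between -0.05 and -0.03. Of all 44 lists, 34 had a median below 0, beside a median of -0.01 over all genes. Of 24 ubiquitin conjugating enzymes 14 were below 0, with Ube2e3 at -0.28 (SE 0.13) and Ube2g2 at 0.28 (SE 0.13). Of 25 cholesterol synthesis genes 19 were below 0, with Pmvk at 0.27 (SE 0.09) and Dhcr7 at -0.26 (SE 0.10). Of 43 histone and DNA modifying enzymes 26 were below 0, with Smyd3 at 0.24 (SE 0.09) and Dot1l, the H3K79 methyltransferase, at -0.23 (SE 0.11) on the probe used and 0.10 (SE 0.11) on another. Of 28 kinesin motors 15 were below 0. Kif13a was at 0.32 (SE 0.16) on the probe used and -0.10 (SE 0.21) on another, and Kif22 at -0.31 (SE 0.18). Of 32 mitochondrial solute carriers 18 were below 0, with Slc25a41 at 0.41 (SE 0.18) and Slc25a38 at 0.18 (SE 0.09). Of 17 piRNA genes 11 were below 0. Tdrd1 was at 0.17 (SE 0.11) and Tdrd6 at 0.12 (SE 0.10), both tudor proteins of germ granules. In the transcription list, Cnot7, of the deadenylase complex, was at -0.20 (SE 0.13). Of the 44 lists, 28 had medians of opposite sign on the slides and 40 had a median within 0.1 of 0.

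**Figure D4:**
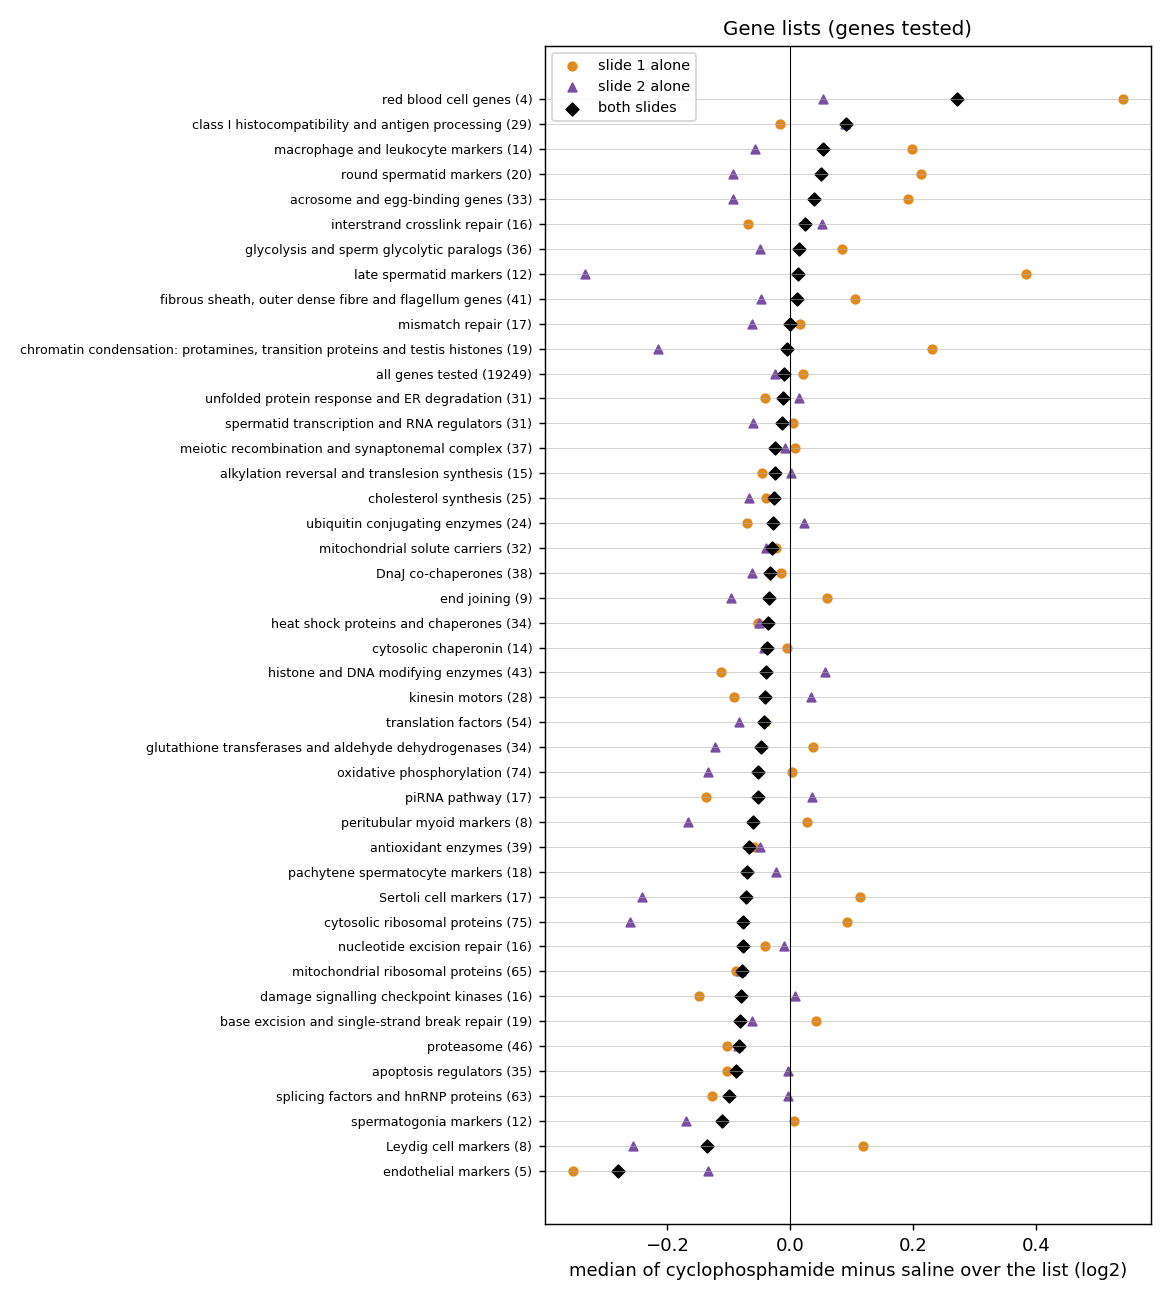
Median difference between cyclophosphamide and saline (log2) over the tested members of each list reported, with the number of members in brackets, on both slides (black diamonds), slide 1 alone (orange circles) and slide 2 alone (violet triangles). The late spermatid markers lie at 0.38 on slide 1 and -0.33 on slide 2, and the red blood cell genes at 0.54 and 0.05.

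Markers of other cells were present in both groups at overlapping levels. With RNA from a whole fraction, fewer cells of a type and less RNA per cell cannot be told apart. Of 18 pachytene spermatocyte markers 11 were below 0, and their mean level was -0.16 to 0.09 under the drug and -0.28 to 0.20 under saline. Sycp3, of the synaptonemal complex, differed by -0.18 (SE 0.15), Piwil1, a piRNA-binding protein, by 0.42 (SE 0.38), Mlh3 by 0.24 (SE 0.12) and Hormad1 by -0.21 (SE 0.13). Of 12 spermatogonia markers 9 were below 0 (mean level -1.92 to -1.57 under the drug and -1.89 to -1.54 under saline), with Id4 at -0.40 (SE 0.27) and Sohlh2 at -0.28 (SE 0.19). Of 17 Sertoli cell markers 12 were below 0 (-2.37 to -1.70 and -2.14 to -1.42). Clu was at -0.07 (SE 0.31) and Rhox8 at -0.30 (SE 0.18), while Kitlg had 0.27 (SE 0.09) on the probe used and -0.36 (SE 0.26) on another. Of 8 Leydig cell markers 6 were below 0 (-3.12 to -1.87 and -2.68 to -1.66), with Cyp17a1 at -0.30 (SE 0.23), Insl3 at -0.22 (SE 0.17) and Star, above background on 5 treated and 3 saline arrays, at 0.09 (SE 0.40).

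Of 14 macrophage and leukocyte markers 10 were above 0. Their mean level was -0.79 to -0.27 (median -0.43) under the drug and -1.12 to 0.18 (median -0.62) under saline, a wider spread in the saline rats. Lyz2, lysozyme, was 0.92 to 1.90 under the drug and 0.16 to 2.0 under saline, and Cd74, the invariant chain of class II molecules, -1.0 to 0.58 and -1.29 to 0.51. C1qc was at 0.37 (SE 0.28), and Csf1r at 0.21 (SE 0.12) on the probe used and -0.01 (SE 0.18) on another. Of these 14 markers, 13 were higher in round spermatid than in pachytene spermatocyte arrays, beside 8128 of all 19249 genes. The markers and all genes alike were kept for signal in round spermatids. Of 8 peritubular myoid markers 7 were below 0 (-0.69 to 0.28 and -0.57 to 0.54). Acta2 was at 0.02 (SE 0.15). Mylk was at -0.11 (SE 0.21) on the probe used and 0.16 (SE 0.23) on another. Actg2, a smooth muscle actin, was at -0.81 (SE 0.43) and -0.83 (SE 0.46) on its 2 probes. Of 5 endothelial markers 3 were below 0 (-4.66 to -4.10 and -4.50 to -3.66), with Pecam1 at -0.52 (SE 0.25) and Esam at -0.28 (SE 0.19). Pecam1, above background on 4 treated and 6 saline arrays, entered the test through the saline arrays alone. Of 4 red blood cell genes 3 were above 0, with a median of 0.27, which was 0.14 without cyclophosphamide rat 14 and 0.47 without saline rat 16. Their mean level was -1.25 to 0.35 (median -0.39) under the drug and -1.46 to 0.02 (median -0.78) under saline. Hbb-b1 was at 0.52 (SE 0.27) and Hbb at 0.67 (SE 0.36), 2 beta-globins that can share signal. Another probe of Hbb-b1 gave 0.64 (SE 0.31). The part of these other cells in the small differences above was not tested.

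Some genes lay at widely separate levels in single rats, and those described from here on were chosen after their values were seen. Spock3 encodes a secreted proteoglycan. Its level was -1.26 to 0.77 (median -0.96) under the drug and -8.51 to -0.04 (median -4.42) under saline, so that the saline rats spanned a far wider range and overlapped the treated ones. It was well above background on 6 cyclophosphamide arrays and on 3 saline arrays, and entered the test through the cyclophosphamide arrays alone. The size of the fitted difference (3.82, SE 1.55, limma adjusted p = 0.928) therefore depends on signals at background. On slide 2 alone, 4 probes passed limma's adjusted p of 0.05, 3 of which had a symbol: RT1-CE4 and RT1-CE11, which are class I histocompatibility genes, and Atp6v1g2, a proton pump subunit encoded in the same complex. RT1-CE4 was at -0.17 to -0.40 in cyclophosphamide rats 15, 25, 26 and 27 and at -0.25 in saline rat 15. It was at -2.75 and -2.69 in cyclophosphamide rats 14 and 16 and between -3.11 and -2.40 in the other 5 saline rats, with no rat in between. RT1-CE11 and Atp6v1g2 were high in the same 5 rats and low in the same 7. The difference of RT1-CE4 was 2.35 on slide 2, where all 3 treated rats were high and all 3 saline rats low, and 0.10 on slide 1, where 1 of 3 was high on each side. Over both slides it was 1.22 (SE 0.58, limma adjusted p = 0.928). RT1-CE11 had 2.53 and -0.02, and Atp6v1g2 had 2.09 and 0.03. The class I genes are near-identical copies, so these probes may share signal. The fourth probe, A_64_P097425, had no symbol and had 5.07 on slide 2 and 0.87 on slide 1. Of the 29 tested class I and antigen processing genes 16 were above 0, and their median residual SD was 0.46 beside 0.24 over all genes. RT1-CE2 was at 0.37 (SE 0.17) on the probe used and 0.21 (SE 0.31) on another, and RT1-CE16 at 0.45 (SE 0.21).

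Other genes split the rats in other ways. Apoc2, an apolipoprotein, was at 1.31 and 1.12 in cyclophosphamide rats 16 and 26 and at 1.23 in saline rat 16, and between -4.48 and -3.54 in the other 9 rats. Lat, an adaptor of T cell receptor signalling, was between -3.95 and -3.19 in cyclophosphamide rats 14, 16 and 26 and saline rats 16 and 29, and between -0.73 and 0.84 in the other 7. Rgs7bp, which binds regulators of G protein signalling, was between -5.26 and -4.52 in cyclophosphamide rats 14 and 25 and saline rats 15, 17 and 25, and between -0.74 and -0.29 in the other 7. The differences on slide 1 and slide 2 were 3.75 and -1.68 for Apoc2, -3.76 and 2.55 for Lat and 3.05 and -1.37 for Rgs7bp. Nr5a2, a nuclear receptor, was the single gene to pass on slide 1 alone (-2.49), and had -0.27 on slide 2. It was not above background in cyclophosphamide rats 16 and 25, and entered the test through the saline arrays alone. The size of its difference therefore rests in part on signals near background. The pachytene arrays include the same rat number and treatment for cyclophosphamide 15 and 16 and saline 16, 25 and 28, although the labels do not say that these are the same animals. Their Lat levels were -0.83 for cyclophosphamide rat 15, -4.02 and -4.70 for the 2 arrays labelled 16, -4.61 for saline rat 16, -0.25 for rat 25 and -1.29 for rat 28. Each lay at the same end as the round spermatid array of that number. For Apoc2 this did not hold, since 1 of the arrays labelled 16 was at -1.74 and the other at -5.05, and saline rat 16 was at -5.08. RT1-CE4 was at 0.09 for cyclophosphamide rat 15 and between -3.05 and -2.12 on the other arrays of these numbers. RT1-CE11 was at -0.20 and between -2.98 and -2.26, so both kept their ends. Rgs7bp was again low for saline rat 25 (-6.89, not above background), with the others between -3.73 and -2.48. Atp6v1g2 was highest for cyclophosphamide rat 15 (-1.17), but 1 array labelled 16 was near it (-1.52).

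**Figure D5:**
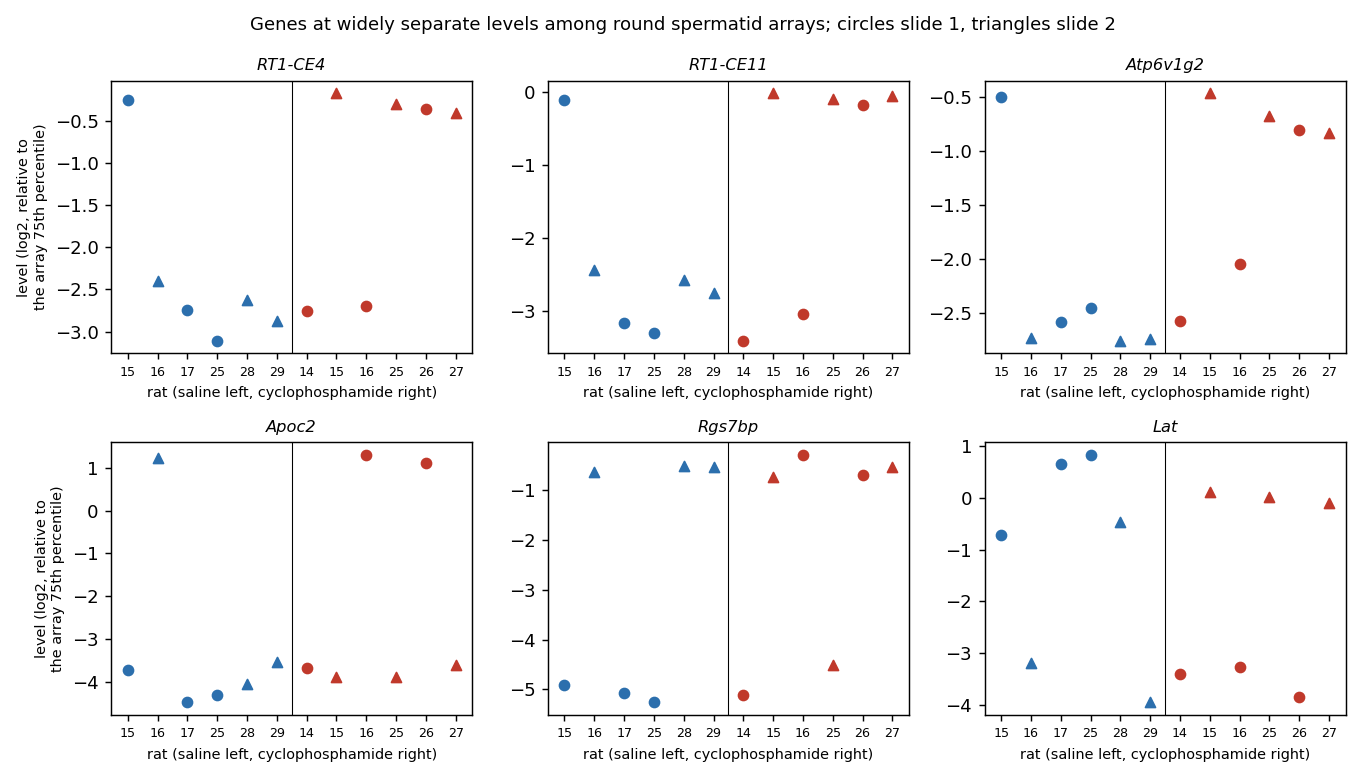
Level (log2, relative to the array's 75th percentile) of 6 genes in each of the 12 rats, saline in blue on the left and cyclophosphamide in red on the right of each panel, circles for slide 1 and triangles for slide 2. RT1-CE4, RT1-CE11 and Atp6v1g2 are high in the same 5 rats, 4 treated and 1 saline, while Apoc2, Rgs7bp and Lat separate other sets of rats.

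The drug difference in round spermatids was also set against that in pachytene spermatocytes, from 5 arrays of each treatment. The test of the interaction over all 22 arrays called 0 of 19249 genes (0%), with a smallest limma adjusted p of 0.160. At an unadjusted p under 0.05 there were 1985 of the 19249 genes. At the same threshold the drug in round spermatids gave 932 in the main fit and 774 in the fit of all 22 arrays. The drug in pachytene spermatocytes gave 1905, with 0 passing after adjustment. The interaction count was thus close to the pachytene count, and the part of each cell type in it was not tested. Of the 1985, the difference was higher in round spermatids for 1353 and lower for 632. For Tnnt1 the pachytene difference was -0.62 (SE 0.29) and for Ifit3 it was -0.28 (SE 0.23). Of the pachytene arrays, Ifit3 was well above background on that of saline rat 25 alone, so its difference there rests on signals at background. The round spermatid markers had a median difference of 0.05 in round spermatids and -0.41 in the pachytene arrays, and the cytosolic ribosomal proteins -0.08 and 0.11. These differences between the cell types were not tested for the lists.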

How the data were processed

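Cy3-labelled RNA from 100 ng total RNA was hybridised to 1-colour arrays. Per the file headers, each deposited scanner file gives, for every spot, a processed intensity from Feature Extraction 10.7.3.1 (11.5.1.1 per the submitters' processing notes), background-subtracted and not scaled between arrays. The deposited value table of the authors holds log2 values, whose columns had medians of -0.0085 to 0.0055 and correlated with their own arrays at 0.942 to 0.997 after centring, over the brighter genes. Its scale and direction were read from that comparison, its exact steps are not given in the sources used here, and it served as an alternative alone.

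Control spots and spots marked as outliers were left out, spots of a probe were averaged, and log2 signals were scaled by each array's 75th percentile over 30330 probes. RefSeq (GRCr8) accessions named 17986 probes (59.3%) with 15150 symbols. Coordinates were not used, because the array's design build differs. Tests were limited to probes well above background on at least 5 of 6 arrays of at least 1 round spermatid group. The probe with the highest mean over the round spermatid arrays stood for a gene. Comparisons with pachytene spermatocytes used the same genes and probes. The test was limma 3.58.1 (R 4.3.3) with slide as a block and Benjamini-Hochberg adjustment. The script was tested on simulated data. The array number limits the precision.

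The members and lists were chosen with earlier results of these data known. The result of 1 list is not reported here. Named genes were taken from genes with a symbol. They were the 12 with the smallest p in each direction, since none passed, the 2 with the smallest p of each list, and 13 marker genes as checks. Alternatives covered slide, scaling, background (normexp on the median signal, in place of the planned mean signal), filter, probe, weights, rat number and single arrays.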

Additional observations from a re-analysis of the deposited data

Results flagged for a closer look

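Among 244 groups of 6 arrays (122 named genes in each treatment), 12 had a lowest or highest rat far from the other 5, beside about 1 in 20 that chance gives. Among the treated rats, Vom2r37 was at -5.95 in rat 15 (others -4.45 to -3.70), and without that rat its difference was 2.25. Rpa2 was at -1.95 in rat 15 (others -1.67 to -1.58), Ercc3 at 1.78 and RT1-CE2 at 2.27 in rat 16, Bcorl1 at -3.15 and Cyp2c23 at -4.74 in rat 26, Dot1l at -0.25 in rat 14 (others 0.30 to 0.48) and Star at -7.61 in rat 25 (others -5.48 to -4.79). Among the saline rats, Terf2ip was at -4.17 and Cfap43 at -4.56 in rat 17, Catsper3 at 2.20 in rat 29 and Rhox8 at -2.73 in rat 16. Without the rat in question, the difference was 0.49 for Cfap43, -0.17 for Rhox8, -0.14 for Dot1l, 0.24 for RT1-CE2 and 0.45 for Star, each over 1.5 times smaller or larger than with it. It was -0.65 for Bcorl1, -0.65 for Cyp2c23, -0.41 for Terf2ip, 0.20 for Catsper3, -0.31 for Rpa2 and -0.17 for Ercc3. None of these genes passed limma's adjusted p of 0.05 with or without the rat.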

How the results depend on the processing

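The count of genes changed by the drug was 0 under every alternative on both slides, and limma's smallest adjusted p ranged from 0.0638 (array quality weights) to 0.9997. It was 0 without each of the 12 rats in turn. Slide 1 alone gave 1 gene and slide 2 alone 4. The replicate block (rat number) also gave 0, with a correlation of -0.014, and the deviations of same-numbered rats (15, 16 and 25), which lie on opposite slides, correlated at 0.07, -0.15 and -0.11 from the group means and at 0.28, 0.09 and 0.05 with slide also removed. The number of genes at unadjusted p under 0.05 went from 593 with normexp to 2427 with array weights, 1739 on slide 1 alone and 1645 without cyclophosphamide rat 25. The array weight was 6.23 for saline rat 25 and 0.478 to 1.99 for the other arrays, so the fit with weights leans on that 1 array. The interaction gave 0 without the slide block, with quantile normalization and with the replicate block, the 3 alternatives run for it. Of 3165 named-gene values 54 changed sign, all uncalled. On slide 1 alone these were Sel1l (-0.0045), Prm1 (0.44), Prm2 (0.23), Tnp1 (0.34), Piwil1 (-0.31), Clu (0.0799) and Cd74 (-0.21), and on slide 2 alone Odf1 (-0.16), Id4 (0.0906), Tnp2 (-0.30), Gapdhs (-0.0020), Star (-0.26) and Acta2 (-0.0989). Array weights gave Mylk 0.0255, Tnp2 -0.0383 and Clu 0.40, the mean over probes Kitlg -0.0410 and Mylk 0.0252, and normexp Tnp1 0.0204. When 1 rat was left out in turn, the value crossed 0 for 10 genes and ran from -0.148 to 0.109 for Prm1, -0.153 to 0.00271 for Prm2, -0.116 to 0.0717 for Tnp1, -0.0543 to 0.122 for Tnp2, -0.248 to 0.174 for Clu, -0.159 to 0.273 for Cd74, -0.0869 to 0.452 for Star, -0.0474 to 0.111 for Acta2, -0.228 to 0.0181 for Mylk and -0.0704 to 0.305 for Lyz2. Scaling turned the sign of 4 list medians, all within 0.03 of 0, the late spermatid markers among them. The cause was not tested.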
